A study of Mus musculus with 6 samples.

Results

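The transcription factor genes Mafa, Pdx1, Nkx6-1, Nkx2-2, Pax6, Neurod1, Isl1 and Irx2 were followed through mouse islet cells sorted into plates. They were taken by name from a fixed list of 8 genes, out of 52542 gene rows in the count tables, and all 8 had unique molecular identifiers (UMIs) in the wells. Islet cells make insulin (beta cells), glucagon (alpha cells), somatostatin (delta cells) or pancreatic polypeptide, and each fate is held by a set of DNA-binding factors that act on hormone genes and on one another's genes. Mafa, Pdx1 and Nkx6-1 are known as beta cell factors, and Pdx1 is also known from delta cells. Nkx2-2, Pax6, Neurod1 and Isl1 are known from several or all endocrine types of the islet, and Irx2 from alpha cells.

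The series asked about physically joined beta and delta cells in the regenerating pancreas. Islets came from male Sox9-CreER; tdTomato mice, in which tamoxifen switches on a red reporter in cells where Sox9, known from pancreatic ducts and progenitors, drives the recombinase. All mice were given tamoxifen (8 mg) from an age of 10 weeks, were operated on at 12 weeks and were left for 4 weeks, the control mice included. The operation was a partial pancreatectomy (ppx) or a sham operation, with 3 plates of 384 wells each. The plates sham 1 and ppx 1 were sorted for tomato-positive cells. Plates sham 3, ppx 2 and ppx 3 were tomato-negative, and sham 2 was mixed, with its first 4 rows positive. The series states 6 pancreata, but no label ties a plate to a mouse, so p-values for the operation measure the spread between plates. Where classes of wells were compared within plates, p-values measure how the class difference varied from plate to plate.

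Plates held 1250861 to 1508513 UMIs, and 2115 of 2304 wells were kept, with at least 500 UMIs and at most 20% mitochondrial UMIs. No well name was shared between plates. A well was high in insulin (Ins1 plus Ins2) from 3% of its UMIs, in glucagon (Gcg) from 2%, in somatostatin (Sst) from 1% and in Ppy from 2%. Wells high in 1 hormone alone were 1002 insulin-only, 126 glucagon-only, 217 somatostatin-only and 62 Ppy-high wells. Joined wells, high in insulin and somatostatin alone, numbered 148, with 49 on sham 1 and 66 on ppx 1. Somatostatin made up 2.03% of their UMIs on each of these plates and 4.36% to 6.55% on the others. In insulin-only wells it was 0.285% on sham 1 and 0.477% on ppx 1. Whether carried-over somatostatin RNA placed wells in the joined class was not tested. A further 319 wells were high in somatostatin and Ppy together, and 91 hormone-low wells held endothelial, stromal or immune transcripts and are called non-endocrine. Somatostatin-only wells came mostly from the tomato-positive plates (93 on sham 1 and 81 on ppx 1). Their median depth was 1533 UMIs, against 4250.5 in insulin-only, 3372 in glucagon-only, 3393 in Ppy-high and 5902.5 in joined wells. The labels of the classes were checked on marker genes of each cell type. The 8 beta markers summed to 8927 CPM (UMIs per 1000000 UMIs) in insulin-only wells and to 370 to 523 CPM in the other classes with 1 hormone. The 8 alpha markers summed to 32978 CPM in glucagon-only wells. The 8 delta markers summed to 6833 CPM in somatostatin-only wells and to 275 to 798 CPM in the other classes with 1 hormone. The 6 polypeptide markers, led by Pyy, stood at 84559 CPM in Ppy-high wells and also at 28344 CPM in somatostatin-only wells, above the delta sum there.

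Homeodomain proteins such as Pdx1, Nkx6-1 and Isl1 read short stretches with the core TAAT. The 250 bases before the start of 3 hormone genes that define the classes (Ins1, Gcg and Sst), and of Pax6 and Isl1, the members with the most such cores before their own start, are printed to show these letters. The sequences are from RefSeq on GRCm38.p6 and run 5′ to 3′ along the gene's strand, with TAAT and its reverse complement ATTA in capitals.
Ins1 (chr19:52264047-52264296, plus strand): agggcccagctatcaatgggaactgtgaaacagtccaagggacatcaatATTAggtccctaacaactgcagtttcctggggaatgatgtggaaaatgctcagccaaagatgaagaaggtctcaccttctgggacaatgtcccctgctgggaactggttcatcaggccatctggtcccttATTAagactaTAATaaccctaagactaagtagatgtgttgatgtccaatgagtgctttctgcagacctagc
Gcg (chr2:62483654-62483903, minus strand): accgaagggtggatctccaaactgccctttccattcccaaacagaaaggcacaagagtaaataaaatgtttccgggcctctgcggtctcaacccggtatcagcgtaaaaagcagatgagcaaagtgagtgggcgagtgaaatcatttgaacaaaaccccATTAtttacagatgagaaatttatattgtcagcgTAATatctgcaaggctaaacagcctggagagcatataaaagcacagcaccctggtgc
Sst (chr16:23890845-23891094, minus strand): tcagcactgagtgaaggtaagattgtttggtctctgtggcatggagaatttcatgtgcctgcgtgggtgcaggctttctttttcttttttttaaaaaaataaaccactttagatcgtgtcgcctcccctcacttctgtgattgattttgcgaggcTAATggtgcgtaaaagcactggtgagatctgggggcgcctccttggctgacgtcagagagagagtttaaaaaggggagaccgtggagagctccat
Pax6 (chr2:105668646-105668895, plus strand): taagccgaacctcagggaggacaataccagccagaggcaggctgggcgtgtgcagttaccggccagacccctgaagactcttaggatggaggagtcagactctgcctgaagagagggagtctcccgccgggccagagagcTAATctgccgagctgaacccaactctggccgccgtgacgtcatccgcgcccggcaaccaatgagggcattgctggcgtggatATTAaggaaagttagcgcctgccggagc
Isl1 (chr13:116309689-116309938, minus strand): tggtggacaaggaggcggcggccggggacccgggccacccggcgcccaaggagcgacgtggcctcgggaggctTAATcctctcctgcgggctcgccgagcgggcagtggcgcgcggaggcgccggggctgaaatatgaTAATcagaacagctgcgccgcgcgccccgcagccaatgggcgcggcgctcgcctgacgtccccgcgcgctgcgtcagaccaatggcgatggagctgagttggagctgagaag
The core was found 3 times before Ins1, 2 times before Gcg and 1 time before Sst. It was found 0 times before Ppy, which also defines a class and is not printed, and 2 times each before Pax6 and Isl1. It occurs in 54.9% of 32851 RefSeq promoters of this length, so a match only describes the letters. Pax6 has 2 entries, both with 2 cores, and the one nearer the start of the annotated gene is shown. Of the 7 members with an entry, Nkx2-2 had 1 core, and Pdx1, Nkx6-1, Neurod1 and Irx2 had 0 in this window. The RefSeq starts differ from the GENCODE starts for some members. The windows of Nkx2-2 and Nkx6-1 lie within the GENCODE gene, and those of Pdx1 and Neurod1 partly within it. The sequence TGACGTCA, which reads the same on both strands and is known as the cyclic AMP response element, lies in the Sst and Pax6 stretches and in 1.55% of all promoters. It does not overlap the TAAT cores there. The E-box CANNTG, the kind of site bound by Neurod1 with its partners, was found 2 times before Ins1, 3 times before Gcg and 1 time before Sst. It was found 0 times before Ppy, and in 66.2% of all promoters.

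In GENCODE on GRCm38, all 8 members are protein-coding genes. Mafa lies on chromosome 15 (75745490 to 75748228), Pdx1 (147269959 to 147275848) and Nkx6-1 (101658139 to 101664996) on chromosome 5, Isl1 (116298281 to 116309689) and Irx2 (72628820 to 72634198) on chromosome 13. Nkx2-2 (147177546 to 147194243), Pax6 (105668900 to 105697364) and Neurod1 (79452521 to 79456751) share chromosome 2. Pdx1 overlaps the antisense gene Plut, Nkx2-2 overlaps Nkx2-2os and 6430503K07Rik, Pax6 overlaps Pax6os1, and Neurod1 overlaps Gm26755 on the other strand and Cerkl on its own strand. Whether the counting used strand is not given in the sources used here, so reads of Pdx1, Nkx2-2, Pax6 and Neurod1 cannot be told apart from those of these partners, and for Cerkl this holds with stranded counting too where the genes overlap. Mafa, Nkx6-1, Isl1 and Irx2 overlap no other gene in this annotation.

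Mafa, which drives insulin transcription in mature beta cells, was almost confined to wells high in insulin. A level is the gene's UMIs in all wells of a class on 1 plate as CPM of all UMIs in those wells. In insulin-only wells Mafa stood at 732, 843 and 883 CPM on sham plates 1 to 3 and at 570.5, 858 and 820 CPM on ppx plates 1 to 3, a mean of 784 ± 117 (SD, n = 6 plates) or 0.0784% of UMIs. The mean was 13.9 ± 10.8 CPM in glucagon-only wells (n = 4), 16.0 ± 18.3 in somatostatin-only wells (n = 5) and 16.5 ± 23.4 in Ppy-high wells (n = 6). The highest plate of any of these 3 classes was 59.0 CPM, from 1 UMI, so their ranges lay far below the insulin-only range and overlapped one another. The mean of joined wells lay between, at 505 ± 105 CPM (n = 4). Their plates ran from 404 to 620 CPM and overlapped the insulin-only range, but joined wells were lower on 4 of 4 plates with both classes.

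Nkx6-1, a repressor that keeps alpha cell genes off in beta cells, was likewise high in insulin-only wells but not confined to them. Its insulin-only levels were 523, 701 and 648 CPM on the sham plates and 374, 565 and 639 CPM on the ppx plates. Glucagon-only wells held 41.0 ± 16.5 CPM and somatostatin-only wells 46.9 ± 44.1 CPM. Ppy-high wells held 295, 96.3 and 81.0 CPM on sham plates and 203, 66.3 and 133 CPM on ppx plates, each from 2 to 7 UMIs. Every plate was therefore lower in Ppy-high than in insulin-only wells, and the 4 plates with both classes were higher in Ppy-high than in glucagon-only wells.

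Pdx1, needed for pancreas formation and for insulin and Sst transcription, was shared by insulin-only and somatostatin-only wells. Insulin-only levels were 97.1, 169 and 132 CPM on sham plates and 78.7, 146 and 136 CPM on ppx plates. The somatostatin-only levels were 96.0, 78.9 and 88.5 CPM on sham plates and 107 and 105 CPM on ppx 1 and ppx 3, so the ranges of the classes overlapped. Within plates, Pdx1 was lower in somatostatin-only than in insulin-only wells on 4 of 5 and higher on 1. The somatostatin-only class held 34 Pdx1 UMIs in 217 wells. Most of these wells were on sham 1 (93) and ppx 1 (81), with 24 on sham 2, 12 on sham 3 and 5 on ppx 3. Levels of the last 3 plates thus rest on few UMIs. Glucagon-only wells held 10.1 ± 8.40 CPM (n = 4) and Ppy-high wells 14.3 ± 24.4 CPM (n = 6), the latter from 2 UMIs in all. These values lay below every insulin-only plate.

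**Figure D1:**
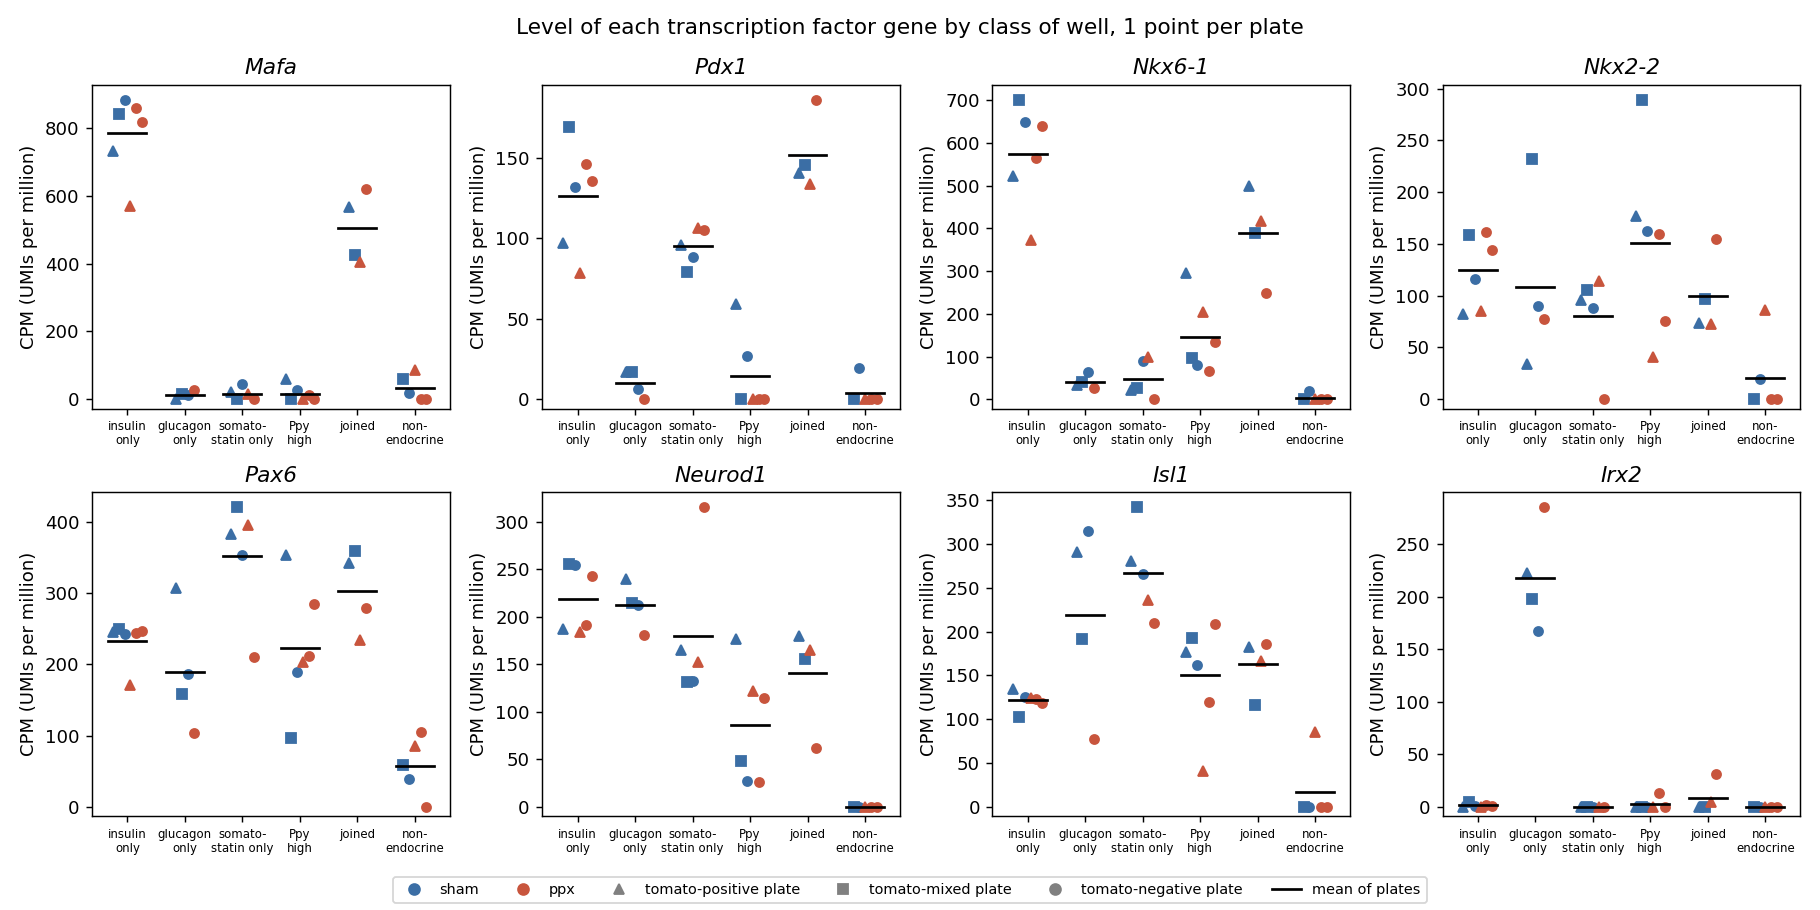
Level of each gene in CPM (vertical axis, linear, a scale of its own in each panel) by class of well, with 1 point per plate that held at least 5 wells of the class, coloured by operation and shaped by tomato status, and a bar at the mean of plates. Mafa stays under 60 CPM in glucagon-only, somatostatin-only and Ppy-high wells against 570.5 to 883 CPM in insulin-only wells, Irx2 stands at 167 to 285 CPM in glucagon-only wells alone, Nkx6-1 and Pdx1 are lower in glucagon-only than in insulin-only wells on every plate, and the ranges of Nkx2-2 and Pax6 overlap between the classes with 1 hormone.

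Irx2, an Iroquois homeodomain factor, was the reverse of Mafa. Glucagon-only wells held 223, 198 and 167 CPM on sham plates and 285 CPM on ppx 2, the only ppx plate with at least 5 such wells. Insulin-only wells held 0 to 4.73 CPM on 6 plates (8 UMIs in 1002 wells), and somatostatin-only wells held 0 UMIs on 5 plates. No plate of another class came near the glucagon-only range, the next highest being 31.0 CPM from 1 UMI in joined wells of ppx 2.

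Nkx2-2, Pax6, Neurod1 and Isl1 were present in all 4 hormone classes, at levels that differed less. Nkx2-2, an NK2 homeodomain factor needed for beta cell formation, stood at 125 ± 35.5 CPM in insulin-only, 108 ± 85.6 in glucagon-only, 80.8 ± 46.2 in somatostatin-only and 151 ± 86.9 in Ppy-high wells. Ordered by level, neighbouring classes differed by less than 1 SD over plates. Pax6, an activator of hormone genes in every islet type, ran from 189 ± 86.5 CPM in glucagon-only and 223 ± 88.0 in Ppy-high wells through 234 ± 31.0 in insulin-only to 353 ± 83.4 in somatostatin-only wells.

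Neurod1, a basic helix-loop-helix activator of Ins genes, stood at 219 ± 35.4 CPM in insulin-only and 212 ± 23.9 in glucagon-only wells, then at 179 ± 77.2 in somatostatin-only and 85.8 ± 61.3 in Ppy-high wells. Its 6 Ppy-high values were 26.5 to 177 CPM, each below the same plate's insulin-only value. Isl1, a LIM homeodomain factor, had another order. It was lowest in insulin-only wells, at 122 ± 10.5 CPM with 103 to 134 CPM on the 6 plates. Ppy-high wells held 150 ± 61.8 CPM, glucagon-only wells 219 ± 108 and somatostatin-only wells 267 ± 49.99, with 210 to 342 CPM on 5 plates. The somatostatin-only and insulin-only ranges of Isl1 did not overlap, while neighbouring classes in the order of levels overlapped. The lowest somatostatin-only value of Isl1, 210 CPM, came from ppx 3, with 5 wells. In wells high in both somatostatin and Ppy, pooled Isl1 was 355 CPM and pooled Pax6 was 376 CPM.

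Detection in single wells followed the levels once depth was made equal. Every well was thinned to 1000 UMIs, which left out 12 insulin-only, 2 glucagon-only, 22 somatostatin-only and 49 non-endocrine wells that were shallower. Mafa was then seen in 52.3% of 990 insulin-only wells (exact Clopper-Pearson interval 49.2% to 55.5%) and in 0 of 195 somatostatin-only wells, which allows a share of up to 1.54% of wells with a UMI at that depth. The somatostatin-only class held 6 Mafa UMIs before thinning. Before thinning, Mafa was seen in 83.9% of insulin-only wells. Nkx6-1 was seen in 43.0% of insulin-only wells, 3.08% of somatostatin-only wells and 9.84% of 61 Ppy-high wells. Irx2 was seen in 17.7% of 124 glucagon-only wells (11.5% to 25.6%) and in 0.303% of insulin-only wells. These intervals cover counting error only.

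**Figure D2:**
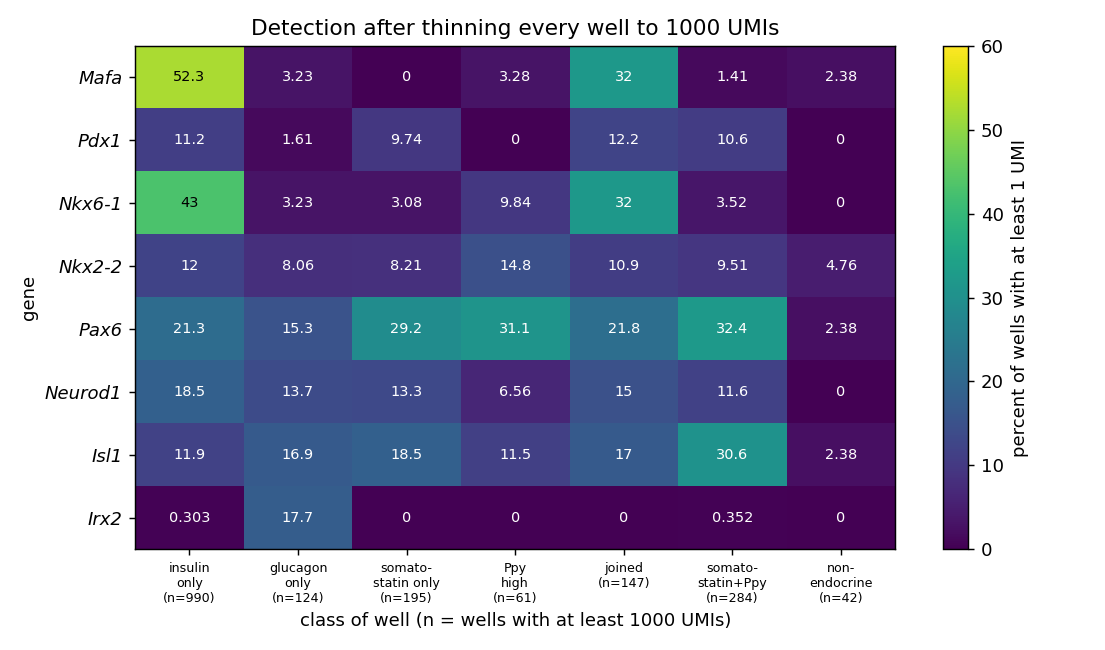
Percent of wells with at least 1 UMI of each gene (rows) in each class of well (columns, with the number of wells) after every well was thinned to 1000 UMIs. Mafa and Nkx6-1 fill the insulin-only and joined columns, Irx2 only the glucagon-only column, and Pax6 lies between 15.3% and 32.4% in all 6 hormone-bearing classes.

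The non-endocrine wells gave the background. Among 42 of them with at least 1000 UMIs, Mafa was seen in 2.38%, Pax6 and Isl1 in 2.38% each, Nkx2-2 in 4.76%, and Pdx1, Nkx6-1, Neurod1 and Irx2 in 0, which allows up to 7.14%. Their median depth before thinning was 953 UMIs. At 1000 UMIs, 88.1% of these wells had none of the 8 genes, against 13.8% of insulin-only, 44.4% of glucagon-only and 39.5% of somatostatin-only wells. The median insulin-only well showed 2 of the 8 genes. Over 990 insulin-only wells the correlations between pairs of members lay between -0.05 and 0.11, given as a description of sparse counts.

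Insulin transcripts were also present at low levels in wells of other classes, so the members' UMIs there were set against what insulin-only RNA would bring along. For each plate, the insulin UMIs of a class were multiplied by the ratio of the member to insulin in insulin-only wells. Mafa had 6 UMIs in glucagon-only wells against 6.39 on that reckoning, 6 against 5.77 in somatostatin-only, 3 against 3.59 in Ppy-high and 10 against 10.1 in somatostatin and Ppy wells. The ratio of Mafa to insulin in these classes was thus close to that of insulin-only wells, and carried-over RNA and RNA made in these wells cannot be told apart from it. Nkx6-1 had 21 UMIs against 4.87 in glucagon-only wells (exact Poisson interval 13.0 to 32.1), 21 against 4.12 in somatostatin-only wells and 27 against 2.59 in Ppy-high wells (17.8 to 39.3). Pdx1 had 34 against 0.854 in somatostatin-only wells and 5 against 1.08 in glucagon-only wells (1.62 to 11.7). Nkx6-1 in the 3 classes and Pdx1 in somatostatin-only wells therefore exceeded the reckoned values. Pdx1 in glucagon-only wells also did so, but narrowly and from 5 UMIs. For Irx2 the same reckoning from glucagon-only RNA gave 4.72 UMIs in insulin-only wells, where 8 were seen (3.45 to 15.8), an interval that holds the reckoned value.

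**Figure D3:**
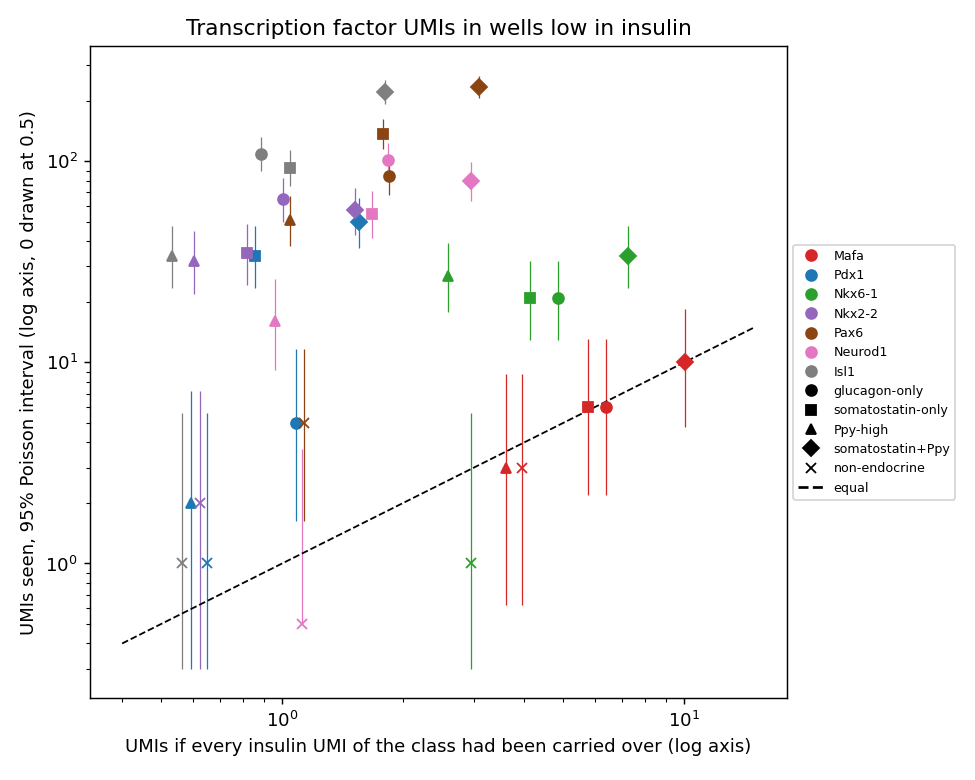
UMIs seen with their exact 95% Poisson interval (vertical log axis, 0 drawn at 0.5) against the UMIs that would be there if all insulin UMIs of the class had been carried over from insulin-only wells (horizontal log axis), for 7 genes in 5 classes of wells. The Mafa points lie on the line of equality, the Nkx6-1 points of hormone-bearing classes lie above it, and the Pax6, Isl1, Nkx2-2 and Neurod1 points of those classes lie far above it.

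The differences between classes were tested on the plate sums with edgeR's quasi-likelihood test, with plate as a block, and a gene was called at a Benjamini-Hochberg adjusted p below 0.05 over all 1318 genes in the fit. Pdx1 was the member that fell under the filter on low counts. Irx2 passed that filter through its glucagon-only levels, and Mafa and Nkx6-1 through their insulin-only levels. The calls of these genes below therefore add no support separate from those levels. An SE of an edgeR fold change is its size divided by the square root of the test's F statistic. Such an SE can fall below counting error where a class holds few UMIs. This applies to Mafa, with 6 UMIs each in glucagon-only and somatostatin-only wells (exact Poisson interval 2.20 to 13.1). In glucagon-only against insulin-only wells, 4 of the 7 tested members were called, beside 49.7% of all genes tested. Mafa was lower, with a log2 fold change of -5.82 (SE 0.30, edgeR adjusted p = 5.89e-24), as was Nkx6-1, with -3.69 (SE 0.27, adjusted p = 1.58e-17). Irx2 was higher by 6.42 (SE 0.54, adjusted p = 1.53e-14) and Isl1 by 1.02 (SE 0.21, adjusted p = 6.43e-05). Mafa and Nkx6-1 were lower and Irx2 higher on 4 of 4 plates with both classes, and Isl1 was higher on 3 of 4, ppx 2 being the exception. The Isl1 call was lost with no filter on low counts (0.68, edgeR adjusted p = 0.293). Neurod1 (-0.07), Nkx2-2 (0.01) and Pax6 (-0.32, 95% interval -0.73 to 0.08) did not pass.

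In somatostatin-only against insulin-only wells, 4 of 7 members were called, beside 37.1% of all genes. Mafa (log2 fold change -5.58, SE 0.32, edgeR adjusted p = 1.08e-21) and Nkx6-1 (-3.52, SE 0.29, adjusted p = 3.93e-15) were lower on 5 of 5 plates. Isl1 was higher on 5 of 5 plates, by 0.93 (SE 0.25, adjusted p = 0.00219). Neurod1 was lower, with a log2 fold change of -0.74 (SE 0.25, edgeR adjusted p = 0.0153), and on 4 of 5 plates. The Neurod1 call was lost without any 1 of sham 1, sham 2, sham 3 or ppx 1 (adjusted p 0.0523 to 0.0806), with log2 fold changes of -0.74, -0.67, -0.62 and -0.73. It was lost too when sham 1 and ppx 1 were left out together (-0.72, edgeR adjusted p = 0.255). With no filter on low counts the calls of Isl1 (0.53, edgeR adjusted p = 0.656) and Neurod1 (-1.09, adjusted p = 0.0547) were both lost. Pax6 stood at 0.43 (SE 0.20) and missed the threshold (edgeR adjusted p = 0.0831), and passed it without sham 1 (adjusted p = 0.0484).

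In Ppy-high against insulin-only wells, 3 of 7 members were called, beside 32.9% of all genes. Mafa was lower on 6 of 6 plates (edgeR adjusted p = 6.39e-19). With 3 Mafa UMIs in Ppy-high wells, its pooled level was 63.4 times higher in insulin-only wells, with a counting interval of 21.7 to 308. Nkx6-1 was lower, with a log2 fold change of -1.996 (SE 0.26, adjusted p = 8.17e-09) as was Neurod1, with -1.35 (SE 0.33, adjusted p = 8.27e-04), each on 6 of 6 plates. Isl1 stood at 0.61 (SE 0.30, edgeR adjusted p = 0.115) and passed only without ppx 1 (0.78, adjusted p = 0.0420) or without both tomato-positive plates (0.89, adjusted p = 0.0327).

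**Figure D4:**
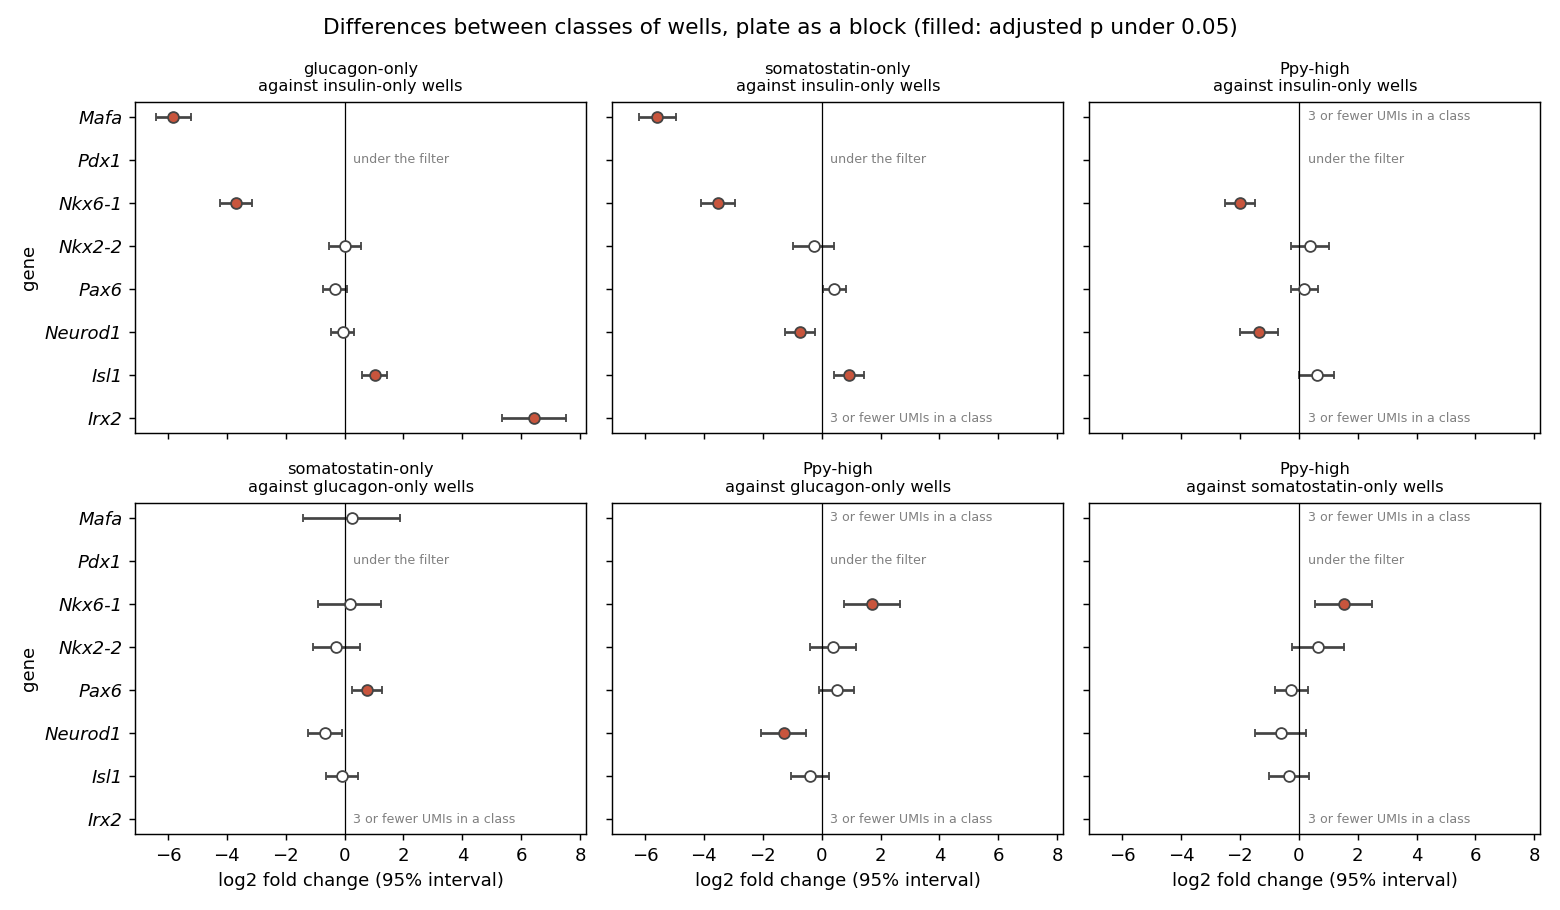
Log2 fold change of each gene (horizontal axis) in 6 comparisons of classes, with plate as a block, filled where the edgeR adjusted p is under 0.05. Bars are 95% intervals derived from the F statistic, which can be too narrow where a class holds few UMIs. Genes with 3 or fewer UMIs in a class, or under the filter on low counts, carry words in place of a point. Mafa and Nkx6-1 lie left of 0 in all comparisons with insulin-only wells that show a point, and Irx2 lies right of 0 for glucagon-only wells.

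The classes without insulin were also compared with each other. In somatostatin-only against glucagon-only wells 2 of 7 were called, beside 23.4% of all genes. Irx2 was at least 21.8-fold lower in somatostatin-only wells, taking 3 counts over the group as the floor (8.57 CPM), with edgeR adjusted p = 4.13e-06. Pax6 was higher by 0.75 (SE 0.25, edgeR adjusted p = 0.0226), a call that was lost without sham 2 (0.61, adjusted p = 0.203), sham 3 (0.76, adjusted p = 0.0767) or ppx 1 (0.69, adjusted p = 0.0650), without sham 1 and ppx 1 together (1.07, adjusted p = 0.0510), with thresholds halved (0.77, adjusted p = 0.0593) and with no filter on low counts (0.60, adjusted p = 0.958). In Ppy-high against glucagon-only wells 3 of 7 were called, beside 11.5% of all genes. Irx2, with 1 UMI in Ppy-high wells, was 42.4 times higher in glucagon-only wells, with a counting interval of 7.42 to 1695 (edgeR adjusted p = 3.43e-04). Nkx6-1 was higher in Ppy-high wells by 1.70 (SE 0.47, edgeR adjusted p = 0.0101) and Neurod1 was lower, with -1.29 (SE 0.38, adjusted p = 0.0157). Without sham 2 both calls were lost (edgeR adjusted p = 0.0577 and 0.0707). The Neurod1 call was also lost without sham 3 (adjusted p = 0.0957) or ppx 2 (adjusted p = 0.148). With no filter on low counts both were lost (edgeR adjusted p = 0.649 for Nkx6-1 and 0.0793 for Neurod1), and that of Nkx6-1 also when sham 1 and ppx 1 were left out together (adjusted p = 0.0663).

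In Ppy-high against somatostatin-only wells Nkx6-1 was the 1 member of 7 called, beside 10.3% of all genes, higher by 1.52 (SE 0.48, edgeR adjusted p = 0.0318) and on 4 of 5 plates. That call was lost without sham 1 (0.78, adjusted p = 0.476), sham 2 (1.44, adjusted p = 0.0750) or ppx 3 (1.39, adjusted p = 0.0989), without sham 1 and ppx 1 together (1.69, adjusted p = 0.264), with thresholds halved (1.33, adjusted p = 0.136) and with no filter on low counts (1.25, adjusted p = 0.694). Pdx1 fell under the filter on low counts in the fit of all 6 plates, so its values here come from the fit with no such filter. There it was lower in glucagon-only than insulin-only wells, with a log2 fold change of -3.71 (SE 0.57, edgeR adjusted p = 1.32e-08) and higher in somatostatin-only than glucagon-only wells by 2.85 (SE 0.73, adjusted p = 0.0133). Its difference between somatostatin-only and insulin-only wells was -0.86 (SE 0.40, adjusted p = 0.346). Pdx1, with 2 UMIs in Ppy-high wells, was 11.04 times higher in somatostatin-only wells (counting interval 2.83 to 94.8, edgeR adjusted p = 0.0483).

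Other islet transcription factors were taken from a list. Of its 35 genes, 9 could be tested, and in glucagon-only against insulin-only wells 4 were higher and 1 lower, a share near the 49.7% of all genes called there, with a median log2 fold change of 0.52 against -0.03 over all genes tested. Etv1, an ETS family factor, was higher by 3.33 (SE 0.22) and the homeobox gene Prox1 by 2.25 (SE 0.36). In somatostatin-only wells 4 were likewise higher and 1 lower (beside 37.1% of all genes), with Hhex, the delta cell factor, at 423 CPM against 4.00 CPM in insulin-only wells. In Ppy-high wells 4 were higher and 1 lower, beside 32.9% of all genes. Insm1, a zinc finger factor of endocrine cells, was the gene lower in each of these comparisons, at -1.42, -0.52 and -2.05 in glucagon-only, somatostatin-only and Ppy-high wells.

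Genes known as targets of the members were taken from a list of 19, of which 15 were tested. In glucagon-only against insulin-only wells 11 were lower and 2 higher, beside 49.7% of all genes called in either direction, with a median log2 fold change of -1.09 against -0.03 over all genes. The urocortin gene Ucn3 was lower there, with a log2 fold change of -5.20 (SE 0.29), as were the glucose transporter gene Slc2a2 with -4.82 (SE 0.31) and the amylin gene Iapp with -4.92 (SE 0.36). The higher ones were Ttr (3.59) and Pcsk2 (1.03), the proconvertase that cuts glucagon from its precursor. In somatostatin-only wells 11 were lower and 2 higher, beside 37.1% of all genes. In Ppy-high wells 10 were lower and 1, the potassium channel gene Kcnj11, was higher, beside 32.9%.

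Joined wells held Mafa, Nkx6-1 and Pdx1 together with Isl1 and Pax6, and 0 of 7 members could be told apart from sums of separate wells. On each of 3 plates, joined wells were set against the sum of equal numbers of insulin-only and somatostatin-only wells (23, 24 and 25 pairs on sham 1, sham 2 and ppx 1). Mafa stood at 567, 427 and 404 CPM in joined wells against 581, 685 and 440 CPM in the sums. Pdx1 stood at 141, 146 and 134 CPM against 94.8, 166 and 91.1 CPM, and Isl1 at 183, 116 and 167 CPM against 136, 118 and 137 CPM. The Mafa values of joined wells were below the sums on 3 of 3 plates, as were those of Nkx2-2 and Neurod1, while Pax6 was above them on 3 of 3 (343, 359 and 235 against 255, 304 and 213 CPM). The direction of Pdx1, Nkx6-1 and Isl1 differed between plates. With plate as a block, 0 of 7 members passed edgeR's test, beside 0.0386% of 2590 genes tested. None of the 7 had an unadjusted p under 0.05, and DESeq2 called 0. The intervals for log2 fold changes were -0.47 to 0.09 for Mafa, -0.11 to 0.89 for Pdx1, -0.12 to 0.48 for Nkx6-1 and -0.04 to 0.67 for Pax6. Irx2 had 3 UMIs in 148 joined wells.

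The effect of pancreatectomy was asked next, first in insulin-only wells, the class with most UMIs. Mafa was 819 ± 78.6 CPM on the 3 sham plates and 749 ± 156 CPM on the 3 ppx plates, and the groups overlapped. The same holds for Pdx1 (133 ± 36.1 against 120 ± 36.3 CPM) and for Nkx6-1 and the 4 shared factors, given per plate above or in the plot by operation. Here 0 of 7 members were called, beside 0.303% of 8239 genes tested (25 genes), and 0 had an unadjusted p under 0.05. DESeq2 called 0 of them as well, beside 0.654% of the 1528 genes to which it gave an adjusted p. A gene without one counts as not called, so this adds little for members that lacked it. Log2 fold changes lay between -0.27 and 0.08. The 95% intervals were -0.45 to 0.13 for Mafa, -0.51 to 0.17 for Pdx1, -0.58 to 0.03 for Nkx6-1 and -0.56 to 0.02 for Neurod1 (edgeR adjusted p = 0.647 and 0.629 for the last 2). They were -0.27 to 0.43 for Nkx2-2, -0.41 to 0.14 for Pax6 and -0.36 to 0.33 for Isl1.

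**Figure D5:**
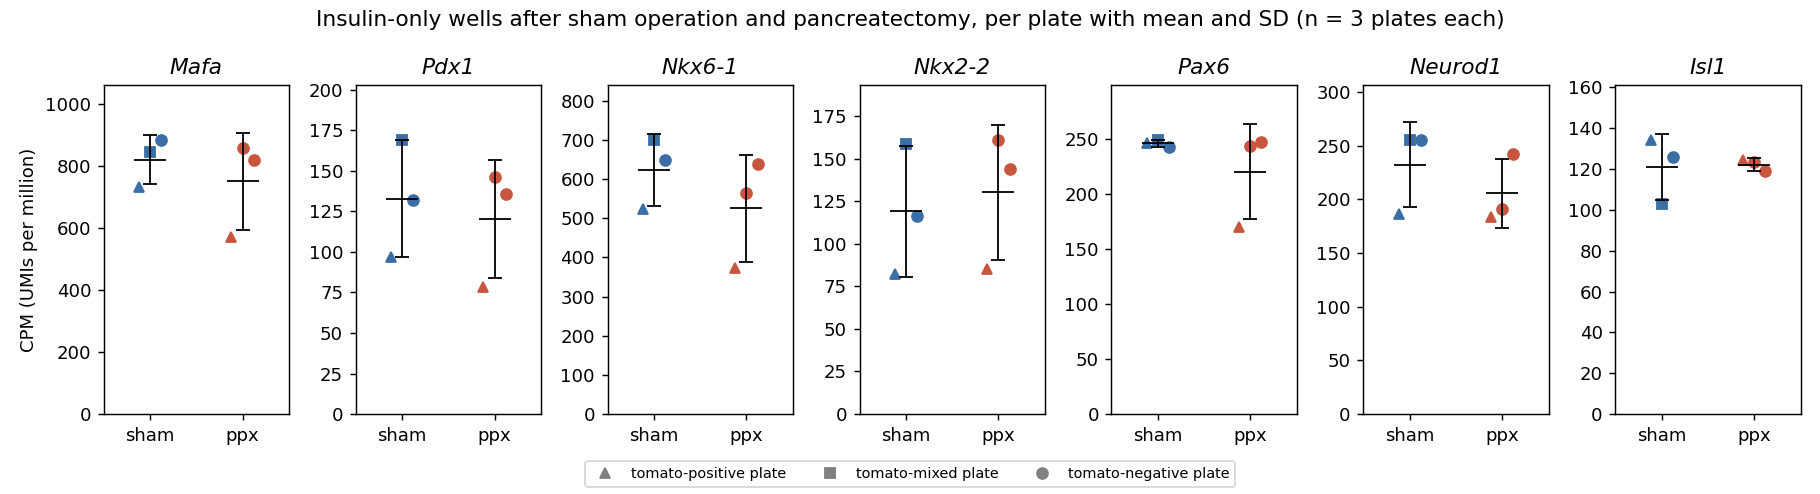
Level in insulin-only wells (vertical axis in CPM, linear from 0) on 3 sham and 3 ppx plates, shaped by tomato status, with the mean and SD. The groups overlap for all 7 genes, and for Mafa, Pdx1, Nkx6-1 and Nkx2-2 the lowest point of each group is its tomato-positive plate.

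Some levels in insulin-only wells lay apart by tomato status. On sham 1 and ppx 1, the plates sorted for tomato, insulin-only wells held 732 and 570.5 CPM of Mafa, against 820 to 883 CPM on the 3 tomato-negative plates. Nkx6-1 was 523 and 374 CPM against 565 to 648 CPM, Pdx1 97.1 and 78.7 CPM against 132 to 146 CPM, and Nkx2-2 82.1 and 85.2 CPM against 116 to 161 CPM. Isl1 did not separate that way, at 134 and 125 CPM against 119 to 126 CPM. The tomato-positive plates had 23 and 25 insulin-only wells, and somatostatin made up 0.285% and 0.477% of UMIs there, against 0.0234% to 0.0362% on the tomato-negative plates. Whether carried-over RNA of other wells had a part in these levels was not tested, nor was the difference between 2 and 3 plates. Within tomato-negative plates, ppx 2 and ppx 3 were below sham 3 in Mafa (858 and 820 against 883 CPM) and Nkx6-1 (565 and 639 against 648 CPM), and also in Neurod1 and Isl1. They were above it in Pdx1 (146 and 136 against 132 CPM), Nkx2-2 (161 and 144 against 116 CPM) and Pax6 (244 and 247 against 243 CPM). Insulin itself was 15.7% and 14.7% of UMIs on ppx 2 and ppx 3, and 22.7% to 28.3% on the other plates. With all hormone UMIs left out, 0 of 7 members passed again.

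In glucagon-only wells the sham plates were set against ppx 2 alone, with 12 wells, assumed to vary as the sham plates do. Of 5 members tested 0 were called, beside 0.332% of 2106 genes. Isl1 was 291, 192 and 315 CPM on sham plates and 77.7 CPM on ppx 2, which lay below all of them. That value rests on 3 UMIs, a sham level 3.29 times higher with a counting interval of 1.10 to 16.2, and a log2 fold change of -1.77 (SE 0.69, unadjusted p = 0.0101, edgeR adjusted p = 0.506). With the hormone thresholds doubled it was -0.06, and with all plates of at least 2 such wells -1.06. Irx2 had a log2 fold change of 0.52 (SE 0.51, edgeR adjusted p = 0.807). DESeq2 called 0 genes.

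In somatostatin-only wells (3 sham and 2 ppx plates) Isl1 and Pax6 passed the filter and neither was called, beside 0% of 467 genes, with log2 fold changes of -0.38 (SE 0.42) and -0.10 (SE 0.33). At an unadjusted p under 0.05, 13 of those genes and 0 members passed, and DESeq2 called 0. In Ppy-high wells 0 members passed the filter, and 0% of 203 genes were called, 10 of them with an unadjusted p under 0.05. Whether the operation acted unequally in 2 classes was tested by an interaction term. For somatostatin-only minus insulin-only wells 0 of 7 members passed, beside 0.0297% of genes. Nkx6-1 had an unadjusted p of 0.0250 in that edgeR fit (log2 difference 1.97, SE 0.88, adjusted p = 1). For glucagon-only minus insulin-only wells ppx 2 was again the only ppx plate, with no spread of its own and assumed to vary as the sham plates do. There 0 of 8 passed, beside 0.0483% of genes, and Isl1 had an unadjusted p of 0.0148 in that edgeR fit (-1.83, SE 0.74, adjusted p = 0.685). DESeq2 called 0 members in both, beside 0% and 0.0242% of genes.

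Of the related genes, none of 18 other islet transcription factors tested in insulin-only wells was called after pancreatectomy, with a median log2 fold change of -0.25 against -0.00339 over all genes. Of 19 target genes, 1 was called, beside 0.303% of 8239 genes tested for both lists. Trpm5, a cation channel gene of beta cells, was lower in ppx, with a log2 fold change of -0.82 (SE 0.18, edgeR adjusted p = 0.0243). The Trpm5 call was not followed through the alternatives. All calls in this comparison ranged from 10 to 47 genes with each plate left out in turn.

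Genes whose levels followed each member most closely over 25 plate-by-class sums were ranked among 2612 genes by Pearson correlation, as a description. For Mafa they were Gm21974 (0.965), Ins1 (0.961) and Pde5a (0.947), of which Ins1 also defined the classes. Those of Irx2 included Ttr (0.873) and Gcg (0.872), Gcg again being used for the classes. For Pdx1 they were Frzb, Insm1 and Nectin3 (0.884 to 0.887), and for Nkx6-1 P4hb, Tmed9 and Atp2a2 (0.863 to 0.874). The closest to Nkx2-2 was Eif1b (0.874), to Pax6 Sgsm1 (0.839), to Neurod1 Cdk2ap2 (0.761) and to Isl1 Smarca2 (0.763). The points share plates, and depth differs between classes.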

How the data were processed

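The authors deposited UMI counts as whole numbers, 1 table per plate with 1 column per well, made by MARS-seq, which counts molecules at the 3′ end of transcripts. Reads were aligned with HISAT 0.1.6 to mm10, per the submitters' processing notes. No counting tool is named, and its strand setting and annotation are likewise not given in the sources used here. Rows of ERCC spike-ins (92) were left out of all totals. The members, gene lists and thresholds were chosen with earlier results of these data known. No doublet caller was run, because the series is about joined cells.

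UMIs were summed per plate and class where at least 5 wells were present, and tested in R 4.3.3 by the quasi-likelihood method of edgeR 4.0.16, after its filterByExpr and TMM scaling and with Benjamini-Hochberg adjustment, after a test on simulated data. Comparisons of classes used 1 fit of 21 sums with plate as a block, and the operation was fitted without one. The Wald test of DESeq2 1.42.0 served as an alternative. Other alternatives were DESeq2 size factors, no filter on low counts, thresholds halved and doubled, at least 1000 UMIs per well, hormone UMIs left out, Ppy not used for classes, tomato status as a covariate or without its positive plates, at least 2 wells per plate (chosen after seeing the data), and each plate left out in turn. Wells were thinned to 1000 UMIs, or 500 as an alternative. Named genes were the 8 members, called genes of both lists (up to 10 per comparison) and the 3 closest genes per member, of which some are not reported here. Intervals of detection, of UMIs seen and of pooled ratios cover counting error only, as do the limits, and the limit for 0 is 3 counts. Intervals of log2 fold changes come from edgeR's F statistic and include the spread between plate sums.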

Additional observations from a re-analysis of the deposited data

Results flagged for a closer look

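Plate levels formed 39 sets of 4 to 6 plates (8 genes in 5 classes of wells). In 6 of them a plate lay far from the others by Dixon's test. Its rate of about 1 in 20 sets by chance holds for normally spread values, not for sets mostly at 0 UMIs. Pax6 in insulin-only wells was lowest on ppx 1, at 170.5 CPM from 25 wells, with the next plate at 243 CPM. In somatostatin-only wells ppx 3, with 5 wells, had the lowest Nkx2-2 level (0 CPM, next 88.5 CPM) and the highest Neurod1 level (315.1 CPM from 3 UMIs, next 165 CPM). Irx2 was highest on sham 2 in insulin-only wells (4.734 CPM from 4 UMIs). It was highest on ppx 2 in Ppy-high wells (13.26 CPM from 1 UMI) and in joined wells (31.01 CPM from 1 UMI). The other 5 Ppy-high plates held 0 Irx2 UMIs, so 1 UMI was bound to be flagged there.

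Outside the classes compared, Isl1 stood at 226.8 CPM in 19 hormone-low wells, against 9.003 CPM in the non-endocrine wells. All 10 of these Isl1 UMIs came from 3 wells on tomato-positive plates in which the ghrelin transcript Ghrl made up 32.8% to 39.8% of UMIs, a group chosen after its values were seen. Pooled, those wells held 559 CPM of Isl1, with UMIs in 3 of 3 wells, and Neurod1 had 3 UMIs there and Nkx2-2 had 1. Mafa, Pdx1, Nkx6-1, Pax6 and Irx2 had 0 UMIs in them. The remaining 16 hormone-low wells had 0 Isl1 UMIs.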

How the results depend on the processing

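Counts of genes called, with the main value first, moved by over 1.5 times as follows. Without the filter on low counts they went from 655 to 1010 for glucagon-only against insulin-only wells, from 433 to 997 for Ppy-high against insulin-only, from 152 to 89 for Ppy-high against glucagon-only, and for ppx against sham from 25 to 61 (insulin-only), 7 to 4 (glucagon-only), 0 to 1 (somatostatin-only) and 0 to 2 (Ppy-high). There the members called fell from 4 to 2 for somatostatin-only against insulin-only and from 3 to 1 for Ppy-high against glucagon-only wells. With Ppy not used, which moves wells high in somatostatin and Ppy into the somatostatin class, the counts were 1000 for glucagon-only against insulin-only, 802 (from 489) for somatostatin-only against insulin-only and 485 (from 308) for somatostatin-only against glucagon-only wells, with 4 members called (from 2), and 1 for ppx in somatostatin-only wells. Thresholds halved gave 90 (from 136) and 0 members (from 1) for Ppy-high against somatostatin-only, 1 member for somatostatin-only against glucagon-only, and 57 and 3 for ppx in insulin-only and somatostatin-only wells. Thresholds doubled gave 1 member for somatostatin-only against glucagon-only, and 13, 0 and 2 for ppx in insulin-only, glucagon-only and somatostatin-only wells. Without both tomato-positive plates the counts were 260 for somatostatin-only against insulin-only, 157 with 1 member for somatostatin-only against glucagon-only, 88 with 0 members for Ppy-high against somatostatin-only, and 50, 0, 2 and 3 for ppx in insulin-only, glucagon-only, somatostatin-only and Ppy-high wells. DESeq2 called 10 genes for ppx in insulin-only and 0 in glucagon-only wells. In glucagon-only wells the count was 3 with hormone UMIs left out, and 0 with tomato status as a covariate or with at least 2 wells per plate.

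For joined wells the count was 0 in place of 1 under DESeq2, with Ppy not used, with hormone UMIs left out, with thresholds doubled, and with no replicate block (plate left out). The interaction counts were 2 and 1. For glucagon-only minus insulin-only wells they became 1 (DESeq2, thresholds halved, thresholds doubled), 0 (Ppy not used) and 44 (without both tomato-positive plates). For somatostatin-only minus insulin-only wells they became 0 (DESeq2, no filter, without both tomato-positive plates) and 2 (Ppy not used).

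With each plate left out in turn, genes called ranged from 10 to 47, 0 to 7, 0 to 2 and 0 to 0 for ppx in insulin-only, glucagon-only, somatostatin-only and Ppy-high wells. For comparisons with insulin-only wells they ranged from 509 to 786 (glucagon-only), 380 to 564 (somatostatin-only) and 355 to 412 (Ppy-high). They ranged from 239 to 343 for somatostatin-only against glucagon-only, 100 to 147 and 95 to 126 for Ppy-high against glucagon-only and somatostatin-only, 0 to 1 for joined wells, and 0 to 44 and 0 to 5 for the interactions. Members called ranged from 4 to 5, 3 to 4 and 3 to 4 against insulin-only, and from 1 to 3, 1 to 3 and 0 to 2 in the other 3 comparisons of classes, in the same order. They were 0 in each fit of operation, joined wells and interactions, under every alternative fitted. The cause of these moves was not tested.

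Members' fold changes were on the same side of the threshold in 78 of 78 cases under DESeq2, its size factors in edgeR, and hormone UMIs left out. A member to which DESeq2 gave no adjusted p was counted there as not called. No called fold change reversed. Leaving out hormone UMIs raised 17 of 40 mean levels by over 1 SD. Over 8239 genes in insulin-only wells, same-numbered sham and ppx plates correlated at 0.0199, 0.0168 and 0.0163. Other pairs of plates correlated at -0.0213 to 0.0181. The values were centred within each operation over 3 plates, so these correlations cannot show whether replicate numbers pair the plates. Plates sham 1 and ppx 1 were both sorted for tomato. A replicate block gave 29 calls for ppx in insulin-only, 1 in somatostatin-only and 7 in Ppy-high wells, 0 of them members, and could not be fitted in glucagon-only wells. Outside their main classes Pdx1, Irx2 and Mafa rest on a few UMIs per plate, which limits the precision of their values there.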
